A study of Homo sapiens with 21 samples.

Results

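Melanoma cells treated with either of 2 inhibitors of protein arginine methyltransferases (PRMTs) were compared with cells treated with either of 2 compounds that act on other chromatin proteins. The measurement was RNA sequencing of SK-MEL-147, an established human melanoma cell line. The PRMT inhibitor side held the 3 GSK-591 and the 3 MS023 libraries, and the other side held the 3 TP-472 and the 3 UNC0642 libraries, so that 12 of the 21 libraries of the series entered the comparison. GSK-591 inhibits PRMT5, and MS023 inhibits the type I enzymes. TP-472 is a bromodomain ligand for BRD9 and, more weakly, BRD7, while UNC0642 inhibits the histone H3 lysine 9 methyltransferases EHMT1 and EHMT2. The libraries were chosen by their treatment labels and not by any measured value. Cells given GSK-484, an inhibitor of the arginine deiminase PADI4, and untreated cells (3 libraries each) are shown beside the comparison. Cells given JQ-1 were used only in the estimate of spread. All groups were the same line grown in the same medium with serum. The sources used here give neither doses nor treatment times, and name no vehicle for the untreated cells. Nothing in the labels says that the 3 replicates of a group were grown apart. The p-values therefore reflect the spread among these libraries alone, which may be technical.

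PRMTs move methyl groups from S-adenosylmethionine to the side chains of arginines. PRMT5, bound to its partner WDR77, forms symmetric dimethylarginine, and the type I enzymes, among them PRMT1, PRMT3, CARM1 and PRMT6, form asymmetric dimethylarginine. Their substrates include histones, the Sm proteins of the spliceosome and many RNA-binding proteins with glycine- and arginine-rich stretches, and loss of PRMT5 activity is known to disturb splicing, the MDM4 transcript included, and to raise p53 signalling.

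The smallest of the 12 libraries, GSK-591 replicate 2, summed to 20978182 expected counts and the largest, UNC0642 replicate 2, to 78776788. The table held 26475 genes, 15062 of them with the counts needed for testing, and the common coefficient of variation between replicates was 5.09%. Levels are CPM, counts scaled to a common library total, and differences are log2 values of the PRMT inhibitors minus TP-472 and UNC0642 with their standard error (SE). A gene was called at a Benjamini-Hochberg adjusted p under 0.05 in the edgeR quasi-likelihood test. SOX10, a transcription factor of the neural crest and melanocyte lineage, stood at 406 to 479 CPM in the 12 libraries, while the pigment genes PMEL and MLANA were at most 0.337 and 0.288 CPM and TYR was at 0 in 10 libraries. Among markers of other cell types, DCN (fibroblasts) and KRT1 (keratinocytes) were at 0 in all 12 libraries, and of the 4 fibroblast, 2 keratinocyte, 3 endothelial and 2 immune markers that could be tested 0 were called by edgeR or DESeq2 with both inhibitors together and 0 had an unadjusted p under 0.05 in that comparison. With MS023 alone the keratin gene KRT10 was called (0.20, adjusted p = 0.0268).

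Among transcripts of the arginine methyltransferases, that of PRMT1 was called higher, those of PRMT3 and PRMT6 were called lower, and those of PRMT5 and CARM1 were not called. PRMT5 had 84.6, 85.8 and 86.3 CPM with GSK-591 and 88.9, 89.5 and 90.0 CPM with MS023, against 86.8, 87.3 and 87.5 CPM with TP-472 and 82.3, 81.4 and 78.9 CPM with UNC0642. MS023 was the highest group and UNC0642 the lowest, with GSK-591 just below TP-472, and the difference was not called (log2 difference 0.06, SE 0.02, adjusted p = 0.055). MS023 by itself was called (0.09, adjusted p = 0.0161). Some reads of PRMT5 were shared between genes, so that its expected counts were not whole numbers. WDR77 was not called either (log2 difference 0.07, SE 0.04, adjusted p = 0.258). PRMT1, the main type I enzyme, was higher (log2 difference 0.13, SE 0.04, adjusted p = 0.017), with 220.2 and 236 CPM on average with GSK-591 and MS023, against 220.5 and 198 CPM with TP-472 and UNC0642. Without MS023 replicate 2 or TP-472 replicate 1 that call was lost, at adjusted p = 0.0567 and 0.0573. PRMT3 fell (log2 difference -0.17, SE 0.04, adjusted p = 0.00371) and PRMT6 fell (log2 difference -0.13, SE 0.04, adjusted p = 0.0296). The fall of PRMT6 was lost without any of 5 libraries (GSK-591 replicate 2, MS023 replicates 1 and 3, TP-472 replicate 3, UNC0642 replicate 2), at adjusted p from 0.0524 to 0.0798. CARM1 was not called (log2 difference 0.08, SE 0.03, adjusted p = 0.118). Over the 14 tested genes of the arginine methyltransferase list, 1 was higher and 2 were lower (7.14% and 14.3%, where all genes had 10% and 8.91%). With GSK-591 0 of the 14 were called by edgeR or DESeq2, and 2 had an unadjusted p under 0.05, while MS023 had 4 higher and 2 lower (28.6% and 14.3%, where all genes had 10.6% and 8.86%). The 4 were 1 without MS023 replicate 2, and the falls, pooled and with MS023, were 4 each without UNC0642 replicate 1. With the GC trend removed the pooled counts were 4 higher and 1 lower, and with total-count scaling 0 higher and 4 lower. The messenger RNA of a target says nothing about how far its enzyme was inhibited, so these levels do not check the labels.

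With both inhibitors together, 2852 genes were called, which is 18.9% of the genes tested, with 1510 higher (10%) and 1342 lower (8.91%). The called differences were small, with a median of 1.12-fold. Of the 2852, 669 were also called in the same direction for each inhibitor alone, 654 for GSK-591 alone, 1222 for MS023 alone and 307 for neither. GSK-591 by itself differed from TP-472 and UNC0642 at 1759 genes (11.7%; 959 higher, 800 lower) and MS023 at 2936 (19.5%; 1601 higher, 1335 lower). A pooled difference can thus come from 1 inhibitor, and it can also come from 1 of the compounds on the other side. A stricter count asked for a call in the same direction in all 4 single contrasts: GSK-591 against TP-472, GSK-591 against UNC0642, MS023 against TP-472 and MS023 against UNC0642. It held 137 genes, 0.91% of those tested, of which 101 were higher (0.671%) and 36 lower (0.239%). These are called the shared genes. Their number was 69 without GSK-591 replicate 1, 85 without MS023 replicate 2, 83, 88 and 88 without TP-472 replicates 1, 2 and 3, 84 without UNC0642 replicate 2 and up to 121 otherwise. The GSK-591 count was 809, 947 and 1063 without its replicates 1, 2 and 3 and 1119 without UNC0642 replicate 2, and the MS023 count was 1183 without MS023 replicate 2. With GSK-484 added to the other side 38 of the 137 were still shared, 24 higher and 14 lower. No gene was shared when differences were tested against 1.2-fold.

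Contrasts with a compound in common share its libraries, but GSK-591 against TP-472 and MS023 against UNC0642 share none. The first of these called 1102 genes (7.32%; 4.31% higher, 3.01% lower) and the other 4120 (27.4%; 13.8% higher, 13.5% lower). Both called 248 genes in the same direction, 22.5% of the first list and 6.02% of the second, and 152 in opposite directions. The remaining pairing, GSK-591 against UNC0642 (3275 genes, 21.7%; 10.8% higher, 10.9% lower) and MS023 against TP-472 (2027, 13.5%; 6.83% higher, 6.63% lower), had 371 genes in the same direction, 11.3% and 18.3% of the lists, and 202 in opposite directions. Agreement in direction was thus the more frequent outcome in both pairings, and opposite calls were common in both.

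**Figure D1:**
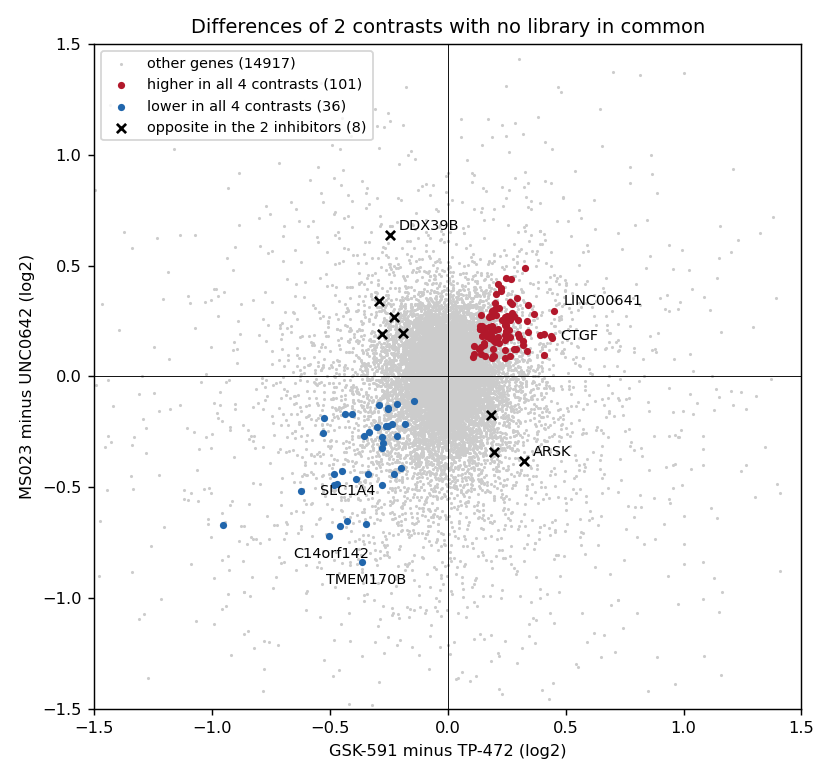
Log2 difference of GSK-591 minus TP-472 (x axis) and of MS023 minus UNC0642 (y axis) for each gene tested, as edgeR fold changes. Red and blue points are the 101 and 36 shared genes, crosses the 8 genes on which the inhibitors went opposite ways, and 123 of 15062 genes lie outside the axes at 1.5; the shared genes lie at the upper right and the lower left.

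The 101 higher genes differed by a median of 0.215 on the log2 scale (1.161-fold, range 0.097 to 0.408), with medians of 0.215 for GSK-591 and 0.216 for MS023. The 36 lower genes differed by a median of 0.309 (1.238-fold, range 0.126 to 0.811), with 0.322 for GSK-591 and 0.311 for MS023. The inhibitors differed from each other at 8 of the 101 and 7 of the 36. In 99 and 36 of them the 6 libraries of one side did not overlap the 6 of the other, where 4.35% of all genes tested did not overlap, 2.72% higher and 1.63% lower; the same contrasts chose these genes, so nothing is read from that share. GSK-484 lay nearer to TP-472 and UNC0642 than to the PRMT inhibitors for 74 of the 101 rises and 30 of the 36 falls, and untreated cells did so for 87 and 34.

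Base composition moved with the comparison. The slope of log2 CPM on transcript GC content, per 10 percentage points, was 0.069, 0.0152 and 0.0133 in the GSK-591 libraries and 0.0696, 0.128 and 0.0393 in the MS023 libraries, against -0.0101, 0.0396 and 0.0375 with TP-472 and -0.0182, -0.0385 and -0.0135 with UNC0642. The sides overlapped, and their means of 0.0557 and -0.000544 differed at p = 0.0216 (two-sided exact permutation test over 924 assignments, 6 against 6 libraries). That test exchanges libraries of different compounds, each side holding 2 compounds of 3 libraries. The group means were 0.0325 for GSK-591 and 0.0789 for MS023, against 0.0223 for TP-472 and -0.0234 for UNC0642, so that GSK-591 lay close to TP-472 and the difference came mainly from MS023 and UNC0642. Genes called higher had a median GC content of 57.3% and genes called lower 43.9%, where all genes tested had 49.8%. With the GC trend of each library removed, 1912 of the 2852 pooled calls were made again in the same direction and 0 in the opposite one. The shared count was then 169 of 14582 genes (1.16%; 138 higher, 0.946%; 31 lower, 0.213%), and 84 genes (0.558%; 64 higher, 20 lower) were shared in both fits. How much of the remaining differences base composition accounts for was not tested. The scale also matters at these sizes: with total-count scaling in place of the TMM factors, the median difference of all genes was -0.0371 in place of -0.00203, and 28 genes were shared higher and 85 lower. The 28 were all among the 101, and the 85 held all 36.

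**Figure D2:**
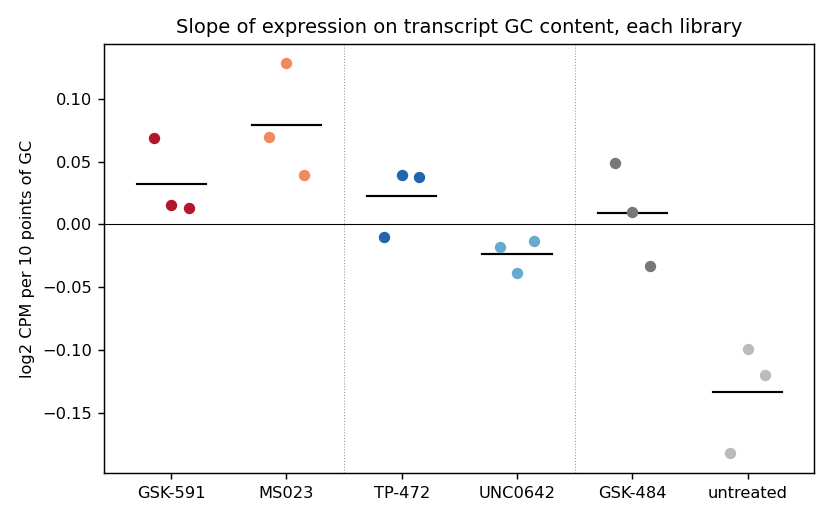
Slope of log2 CPM on transcript GC content (y axis, log2 per 10 percentage points) in each library of 6 groups; points are libraries and lines are means of 3. MS023 replicate 2 has the highest slope, 0.128, the UNC0642 libraries lie below 0, and the untreated libraries are lowest, with a mean of -0.134.

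The largest shared rises were taken from those with whole counts, also shared with the GC trend removed, whose libraries did not overlap between the sides. Non-overlap was thus fixed by the choice and adds no evidence for these genes. The 10 largest by their smallest single contrast were LINC00641, PHLDA3, RGS3, ST3GAL4, CDKN1C, ARHGEF4, EFNA1, CD82, AVPI1 and CCNL2. LINC00641, a long noncoding RNA gene at chr14:21200079-21206900 (hg38, GENCODE 29), had 30.3, 35.4 and 33.2 CPM with GSK-591 and 32.6, 33.9 and 33.6 CPM with MS023, against 25.4, 23.7 and 23.1 CPM with TP-472 and 27.2, 27.7 and 26.6 CPM with UNC0642. All 6 PRMT inhibitor libraries lay above the other 6 (log2 difference 0.37, SE 0.04, adjusted p = 8.6e-06), and GSK-484 averaged 24.1 and untreated cells 27.5 CPM. Its transcript GC content of 40.3% is below the median of all genes, and its difference with the GC trend removed was 0.43.

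RGS3, which speeds the shut-off of G protein signals, had 118, 114 and 120.4 CPM with GSK-591 and 116, 123 and 118 CPM with MS023, against 93.9, 96.05 and 101 CPM with TP-472 and 99.5, 96.8 and 99.8 CPM with UNC0642. The groups did not overlap (log2 difference 0.28, SE 0.03, adjusted p = 5.4e-06), and GSK-484 lay between them at 110.3 CPM. ST3GAL4, a sialyltransferase that caps glycans, had 58.6, 55.7 and 58.6 CPM with GSK-591 and 56.6, 57.9 and 53.8 CPM with MS023, against 45, 48.1 and 47.6 CPM with TP-472 and 46.9, 46.4 and 48.1 CPM with UNC0642. The lowest PRMT inhibitor library, MS023 replicate 3, was above the highest of the others (log2 difference 0.28, SE 0.03, adjusted p = 8.9e-06), and GSK-484 and untreated cells averaged 49.4 and 46.4 CPM. ARHGEF4, a guanine nucleotide exchange factor, had 41.8, 39.8 and 35.5 CPM with GSK-591 and 38.2, 40.9 and 37.8 CPM with MS023, against 30.5, 31.3 and 30.9 CPM with TP-472 and 33.3, 32.5 and 32.8 CPM with UNC0642. GSK-591 replicate 3 was the lowest of its side and still above the others (log2 difference 0.29, SE 0.04, adjusted p = 1.2e-05). EFNA1, a ligand of Eph receptors, and CD82, a tetraspanin that restrains cell movement, rose by 0.25 and 0.26 on the log2 scale. AVPI1 rose by 0.32.

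The cell cycle inhibitor CDKN1C rose (log2 difference 0.35, SE 0.05, adjusted p = 4.7e-05), with 30.9, 27.9 and 29.9 CPM with GSK-591 and 32.7, 34.2 and 30.2 CPM with MS023, against 24.3, 24.8 and 25.7 CPM with TP-472 and 23.4, 22.2 and 26 CPM with UNC0642. The closest libraries of the sides were GSK-591 replicate 2 and UNC0642 replicate 3. CCNL2, a cyclin bound to splicing factors, had 115, 107 and 105 CPM with GSK-591 and 103, 109.7 and 106 CPM with MS023, against 87.6, 93.4 and 91.4 CPM with TP-472 and 91.5, 91.4 and 92.8 CPM with UNC0642. Its libraries did not overlap (log2 difference 0.23, SE 0.03, adjusted p = 4.2e-05), while those of GSK-484 spanned the gap, at 105, 98.9 and 91.1 CPM. The rises UTP14A, MXD4 and LZTS2 had counts that were not whole, so that reads may have been split with similar genes. UTP14A, needed for processing of ribosomal RNA, rose by 0.33, the MAX partner MXD4 by 0.27 and LZTS2 by 0.24 on the log2 scale.

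Of these 13 rises, LINC00641, RGS3, ST3GAL4, ARHGEF4, CCNL2, UTP14A and MXD4 stayed called in all 4 single contrasts whichever of the 12 libraries was left out. PHLDA3, CD82 and LZTS2 did so in 11 of 12 such fits, EFNA1 in 9, AVPI1 in 8 and CDKN1C in 7, while their pooled calls were kept in all 12. With GSK-484 added to the other side, only LINC00641, ST3GAL4, AVPI1 and UTP14A of the 13 were still shared, and with total-count scaling CDKN1C, EFNA1 and AVPI1 were not.

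**Figure D3:**
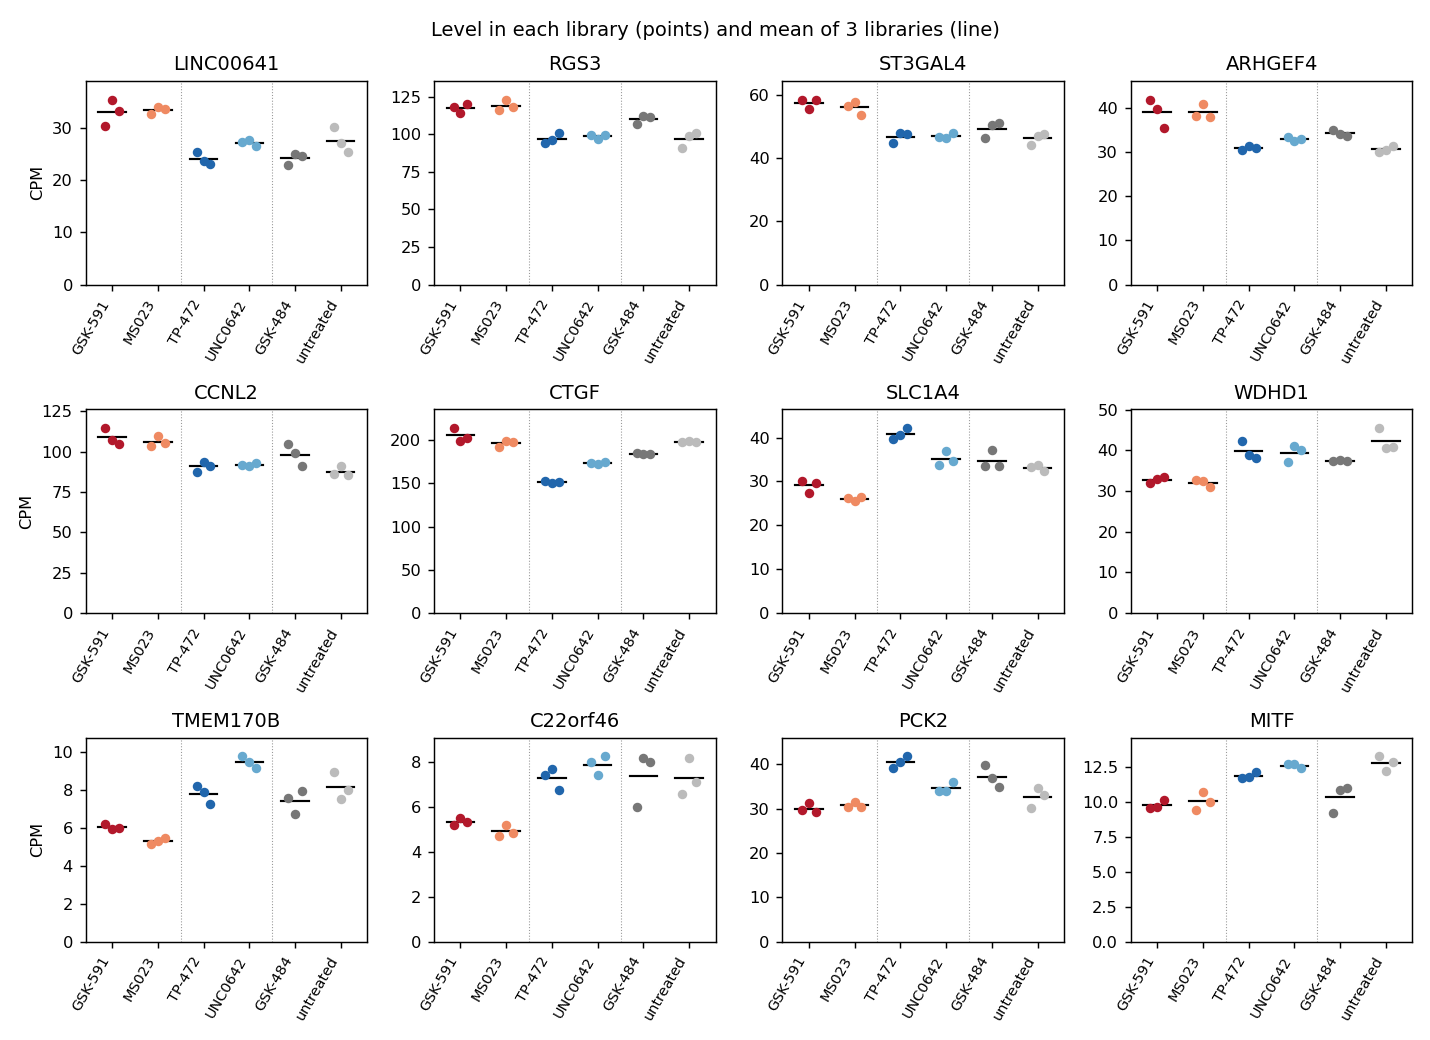
CPM (y axis, from 0) of 12 shared genes in each of 18 libraries; points are libraries and lines are means of 3, with GSK-591 and MS023 left of TP-472 and UNC0642, and GSK-484 and untreated cells at the right. The top row and the next 2 panels are rises, and the others falls; CTGF in untreated cells, at 198 CPM, is as high as with the PRMT inhibitors.

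Falls were chosen by the same conditions, non-overlapping libraries included, so that their separation adds no evidence either. They came from the 20 of 36 shared falls also shared with the GC trend removed. The 10 largest of these with whole counts, by their smallest single contrast, were C22orf46, CYP4V2, HSPA4L, TMEM170B, OAS3, ZC3H6, C14orf142, SLC1A4, WDHD1 and LRRCC1. SLC1A4, a transporter of neutral amino acids at chr2:64988477-65023865, had 30.2, 27.5 and 29.7 CPM with GSK-591 and 26.2, 25.5 and 26.4 CPM with MS023, against 39.6, 40.6 and 42.2 CPM with TP-472 and 33.8, 36.95 and 34.6 CPM with UNC0642. All 6 PRMT inhibitor libraries were below the other 6 (log2 difference -0.46, SE 0.04, adjusted p = 3.7e-08), MS023 went lower than GSK-591 (difference 0.17, adjusted p = 0.0421), and GSK-484 and untreated cells averaged 34.8 and 33.2 CPM. WDHD1, which couples DNA polymerase to the replicating helicase, had 31.9, 32.96 and 33.5 CPM with GSK-591 and 32.7, 32.5 and 30.96 CPM with MS023, against 42.2, 38.9 and 38.05 CPM with TP-472 and 37.01, 41.1 and 40.1 CPM with UNC0642. The sides were again apart (log2 difference -0.29, SE 0.04, adjusted p = 7.6e-05), and untreated cells were the highest group at 42.3 CPM. SLC1A4 and WDHD1 stayed shared without any of the 12 libraries in turn.

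TMEM170B, a membrane protein gene at chr6:11538278-11583524, had 6.21, 5.92 and 5.97 CPM with GSK-591 and 5.15, 5.28 and 5.44 CPM with MS023, against 8.19, 7.87 and 7.23 CPM with TP-472 and 9.76, 9.47 and 9.17 CPM with UNC0642. MS023 was the lowest group and UNC0642 the highest (log2 difference -0.60, SE 0.06, adjusted p = 1.5e-06). C14orf142, which codes for the KEOPS complex subunit GON7, a factor in transfer RNA modification, had 7.53, 6.74 and 8.17 CPM with GSK-591 and 5.31, 6.04 and 5.41 CPM with MS023, against 11.7, 10.3 and 10.1 CPM with TP-472 and 9.14, 9.05 and 9.57 CPM with UNC0642. MS023 was lower than GSK-591 here as well, and both were below the other groups (log2 difference -0.61, SE 0.06, adjusted p = 1.1e-06). C22orf46 averaged 5.35 and 4.92 CPM with GSK-591 and MS023, against 7.31 and 7.90 CPM with TP-472 and UNC0642 (log2 difference -0.56, SE 0.08, adjusted p = 6.1e-05). The fatty acid hydroxylase CYP4V2 fell by 0.44 on the log2 scale, the chaperone HSPA4L by 0.48, the zinc finger protein gene ZC3H6 by 0.51 and the centrosomal LRRCC1 by 0.43. OAS3, an interferon-induced synthetase of oligoadenylates, fell to 18.4, 15.2 and 17.3 CPM with GSK-591 and 17.4, 15.4 and 17.04 CPM with MS023, against 22.2, 21.01 and 21.7 CPM with TP-472 and 20.7, 23.1 and 23.4 CPM with UNC0642 (log2 difference -0.39, SE 0.06, adjusted p = 6.9e-05); of the other 27 tested interferon-stimulated genes, 1 was called higher and 0 lower. IQCH and ZBED1, with counts that were not whole, fell by 0.54 and 0.31. Several of these genes had under 10 CPM, where each library adds more counting error, and in the fits without 1 library HSPA4L stayed shared in 4 of 12, ZC3H6 in 5, CYP4V2 and C22orf46 in 8, C14orf142 in 9, TMEM170B and LRRCC1 in 10, OAS3 in 11, IQCH in 6 and ZBED1 in 7. Of the falls named here and above, WDHD1, HSPA4L, TMEM170B, OAS3, ZC3H6, LRRCC1 and IQCH were no longer shared with GSK-484 added to the other side.

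The promoters of shared genes were read from RefSeq (GRCh38.p14) as the 250 bases before the start site, which were known for 80 of the 101 higher and 28 of the 36 lower genes. Motifs were searched on both strands, and a match is only a run of letters. The E-box CACGTG, the core bound by MYC and MITF family factors, was in 12 of 80 promoters of higher genes (15%) and 0 of 28 of lower genes, against 8.7% of all 11790. The cell cycle element TTTGAA was in 10% of the higher and 21.4% of the lower promoters, against 8.63%, and CCAAT in 27.5% and 42.9%, against 35.2%. GGAATG, the core bound by TEAD factors, was in 10% and 10.7%, against 9.4%, and GGGCGG, the GC box of SP factors, in 73.8% and 75%, against 65.2%. The E2F core TTTNNCGC was in 6.25% and 14.3%, against 8.8%. The CRE motif TGACGTCA was in 5% and 0%, against 2.8%. The amino acid response core TGATGNAA was in 1.25% and 3.57%, which is 1 promoter each, against 1.54%. Differences between these shares were not tested. Promoters are shown for a rise with 3 TEAD cores (CTGF, listed in RefSeq as CCN2), a rise among the splicing kinases with an E-box (CLK4) and a fall with the cell cycle element (ERCC6L, a helicase of mitotic chromosomes), with the motif in capitals and each sequence ending at the base before the start site.
CTGF, chr6:131951373-131951552, minus strand: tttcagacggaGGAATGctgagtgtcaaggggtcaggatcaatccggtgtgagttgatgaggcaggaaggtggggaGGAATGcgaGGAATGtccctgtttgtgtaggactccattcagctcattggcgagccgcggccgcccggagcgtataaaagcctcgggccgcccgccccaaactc
CLK4, chr5:178627051-178627230, minus strand: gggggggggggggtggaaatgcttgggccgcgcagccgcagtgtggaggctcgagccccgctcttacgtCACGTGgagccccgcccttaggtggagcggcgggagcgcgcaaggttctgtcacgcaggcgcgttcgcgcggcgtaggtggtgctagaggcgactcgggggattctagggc
ERCC6L, chrX:72239028-72239277, minus strand: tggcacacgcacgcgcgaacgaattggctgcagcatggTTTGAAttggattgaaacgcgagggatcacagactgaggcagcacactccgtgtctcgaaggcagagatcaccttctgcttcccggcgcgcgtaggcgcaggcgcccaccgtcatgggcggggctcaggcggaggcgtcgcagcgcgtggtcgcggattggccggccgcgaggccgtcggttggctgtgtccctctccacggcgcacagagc
The TEAD cores of CTGF begin 169, 104 and 95 bases before the start site, the E-box of CLK4 111 bases and the element of ERCC6L 212 bases. Whether any of these letters is bound in these cells was not measured.

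Gene lists were read next, each with its counts in the pooled comparison and its median log2 difference, beside 10% higher, 8.91% lower and a median of -0.002 for all genes tested. List members named without being shared genes were picked after their values were seen. Rises and falls in the lists are calls against TP-472 and UNC0642, and not against untreated cells. In the list of SR proteins and splicing kinases, 8 of 22 genes rose and 0 fell, with a median of 0.03, and with the GC trend removed 10 rose. CLK1 and CLK4, kinases that phosphorylate SR proteins, were shared. CLK4 had 15.97, 15.9 and 15 CPM with GSK-591 and 14.9, 15.1 and 15.2 CPM with MS023, against 13.4, 13.2 and 13.02 CPM with TP-472 and 13.3, 13.2 and 13.3 CPM with UNC0642. The 6 and 6 libraries did not overlap (log2 difference 0.21, SE 0.04, adjusted p = 0.000653), but untreated cells were as high, at 14.6, 15.7 and 15.2 CPM. CLK1 rose as well (log2 difference 0.18, SE 0.03, adjusted p = 5.9e-05), with 93.1 and 91.01 CPM on average with GSK-591 and MS023 and 94.5 CPM in untreated cells. GSK-484 replicate 1, at 14.9 CPM of CLK4, came up to the PRMT inhibitor libraries, and both genes stayed shared in 8 of the 12 fits without 1 library. Neither was shared with total-count scaling or with GSK-484 added to the other side.

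Against TP-472 and UNC0642, GSK-591 had 10 of the 22 higher and 0 lower in this list, and MS023 4 higher and 2 lower. Over all genes the shares were 6.37% higher and 5.31% lower with GSK-591 and 10.6% and 8.86% with MS023. Summed over the list, untreated cells had 2915 to 3007 CPM, GSK-591 2871 to 2966 and MS023 2799 to 2875. TP-472 had 2754 to 2838 CPM and UNC0642 2797 to 2817. TRA2B, a splicing activator, had 204, 197 and 209 CPM with GSK-591 and 169, 179.6 and 186 CPM with MS023, against 191, 175 and 183 CPM with TP-472 and 175, 171 and 173 CPM with UNC0642. GSK-591 stood above the other 3 groups and MS023 was level with TP-472 and UNC0642, and the inhibitors differed by 0.19 (adjusted p = 0.00443). SRSF4 gave the same picture, with 0.28 for GSK-591 and 0.07 for MS023 (adjusted p of their difference = 0.00175). Without GSK-591 replicate 2 the GSK-591 count was 5, and without GSK-591 replicate 3 or UNC0642 replicate 2 it was 6; the MS023 rises were 2 and its falls 0 without MS023 replicate 2, and its falls 1 without MS023 replicate 1. With total-count scaling the GSK-591 count was 5, and the pooled median of the list turned to -0.00109.

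Genes for protein families that PRMTs are known to methylate were called at shares below and above that of all genes. Of 30 tested Sm, LSm and snRNP protein genes, 1 was higher and 2 lower (3.33% and 6.67%, median -0.006): SNRNP70 of the U1 particle rose (log2 difference 0.11, SE 0.03, adjusted p = 0.00433), and GEMIN5, which loads Sm proteins on small nuclear RNAs, fell (log2 difference -0.19, SE 0.03, adjusted p = 0.000639), as did SNRPA1 (-0.12). With the GC trend removed SNRNP70 and SNRPA1 were not called (adjusted p = 0.0659 and 0.147). Of 29 genes for RNA-binding proteins with arginine-rich stretches, 2 were higher and 4 lower (6.9% and 13.8%), beside 10% and 8.91% of all genes. TAF15 was among the falls, with 121, 136 and 155 CPM with GSK-591 and 176, 157 and 182 CPM with MS023, against 169, 181 and 178 CPM with TP-472 and 191, 192 and 182 CPM with UNC0642. Its fall lay with GSK-591 (-0.41, against -0.08 for MS023, adjusted p of the difference = 0.00422), where the 3 libraries spread most. RBMX fell with MS023 (-0.28) and had 0.03 with GSK-591, though its counts were not whole. Of 12 genes of nonsense-mediated decay 0 were called by edgeR or DESeq2, and 2 had an unadjusted p under 0.05.

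Targets of p53 split between the inhibitors. With both together 10 of 26 rose and 2 fell (median 0.08). The falls numbered 0 without UNC0642 replicate 2, 2 without MS023 replicate 2, TP-472 replicate 3 or UNC0642 replicate 1, and 1 without any other single library. GSK-591 raised 15 and lowered 0, with a median of 0.14, while MS023 raised 7 and lowered 7, with a median of 0.003, and 8 of the 26 were higher with GSK-591 than with MS023 and 0 lower, where 5.43% and 4.46% of all genes were. MDM2, the ligase that degrades p53, had 80.4, 86.6 and 85.8 CPM with GSK-591 and 68.9, 68.4 and 72.05 CPM with MS023, against 79.1, 75.2 and 75.9 CPM with TP-472 and 78.7, 76.7 and 73.5 CPM with UNC0642. GSK-591 was the highest and MS023 the lowest of the 4 groups (0.14 and -0.13, difference 0.27, adjusted p = 0.000609). MDM4, its partner, differed in the same way (0.15 and -0.13, adjusted p of the difference = 0.000285), and ZMAT3 (0.29 and -0.03, adjusted p = 8.2e-05) and SESN1 (0.37 and 0.05, adjusted p = 0.00541) were higher with GSK-591 than with MS023. GSK-591 averaged 84.2 CPM of MDM2 and 120.5 CPM of MDM4, and untreated cells 91.3 and 120.2 CPM.

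A few p53 targets rose with both inhibitors. CDKN1A, the cell cycle inhibitor p21, had 431, 423 and 423 CPM with GSK-591 and 416, 431 and 411 CPM with MS023, against 359, 376 and 377 CPM with TP-472 and 370.2, 357 and 360.5 CPM with UNC0642. All 6 PRMT inhibitor libraries were above the other 6 (log2 difference 0.20, SE 0.03, adjusted p = 3.9e-05), and GSK-484 replicate 1, at 416 CPM, reached them. CDKN1A stayed shared in all 12 fits without 1 library and was not shared with GSK-484 added to the other side. PHLDA3, which holds back the kinase AKT, had 92.4, 90.0 and 83.5 CPM with GSK-591 and 87.6, 99.5 and 89.3 CPM with MS023, against 72.5, 73.1 and 74.4 CPM with TP-472 and 74.8, 72.1 and 73.8 CPM with UNC0642. The sides did not overlap (log2 difference 0.30, SE 0.05, adjusted p = 0.00014). BBC3, which codes for the death protein PUMA, rose with 0.20 for GSK-591 and 0.34 for MS023, and BMF, another death protein of the same family, with 0.30 and 0.30. The survival gene BCL2 fell, by 0.21 with GSK-591 and 0.57 with MS023. BMF and BCL2 belong to a list of 23 apoptosis regulators, of which 5 rose, 3 fell and 15 were not called with both inhibitors together; GSK-591 raised 7 and lowered 2, and MS023 raised 2 and lowered 4. Without 1 library the GSK-591 falls were 1 or 2. Summed over these regulators, untreated cells were the highest of these groups at 2035 to 2078 CPM. GSK-591 had 1948 to 1966 CPM and MS023 1874 to 1906, against 1856 to 1915 with TP-472 and 1947 to 1960 with UNC0642. With the GC trend removed 8 of the 23 rose and 2 fell, and BMF was not shared. In the list of p53 targets GDF15 had the largest fold change. It stood at 1.85 to 3.06 CPM with the PRMT inhibitors, 0.86 to 1.09 CPM with TP-472 and 1.92 to 3.19 CPM with UNC0642. GDF15 thus separated the PRMT inhibitors from TP-472 only. Without GSK-591 replicate 2 the 15 rises of p53 targets with GSK-591 were 8, and without MS023 replicate 1 or 2 the 7 falls with MS023 were 3. With the GC trend removed the 7 falls with MS023 were 2 and the 15 rises with GSK-591 were 14, and with total-count scaling GSK-591 raised 8 and both together raised 6 and lowered 3.

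Genes for homologous recombination and the Fanconi anaemia pathway, which repair broken and crosslinked DNA, were called lower in many cases and higher in none. Of 27 tested, 15 fell and 0 rose (median -0.13), 11 with GSK-591 and 10 with MS023 alone. BRCA1, the shared member, had 20.2, 20.3 and 20.9 CPM with GSK-591 and 23.04, 22.6 and 24.5 CPM with MS023, against 28.8, 26.1 and 26.5 CPM with TP-472 and 25.7, 26.5 and 26.6 CPM with UNC0642. GSK-591 was lower than MS023 (adjusted p of the difference = 0.0439), all 6 were below the other 6 (log2 difference -0.29, SE 0.04, adjusted p = 5.2e-05), and GSK-484 lay within the MS023 range at 23.8 CPM. BRCA1 was no longer shared with the GC trend removed, with counts thinned to the smallest total or with GSK-484 added to the other side. BRCA2 had 10.3, 9.58 and 10.2 CPM with GSK-591 and 11.5, 10.00 and 9.02 CPM with MS023, against 13.3, 12.7 and 12.6 CPM with TP-472 and 11.7, 15.7 and 14.6 CPM with UNC0642. Both inhibitors were lower by a similar amount (-0.42 and -0.40, pooled adjusted p = 0.00116). BARD1, the partner of BRCA1, had -0.20, the helicase BRIP1 -0.25 and FANCB, of the Fanconi core, -0.50, all called. The median GC content of this list was 42.9%, below that of all genes, and with the GC trend removed 8 of the 27 fell and the median was -0.07. With GSK-484 added to the other side 12 fell and 1 rose, and without 1 library 10 to 14 fell. The GSK-591 falls were 6 without GSK-591 replicate 2 and 7 without GSK-591 replicate 1 or 3, and the MS023 falls 6 without MS023 replicate 2.

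In the G1/S and DNA replication list 10 of 28 fell and 1 rose (median -0.08), among them MCM10 (log2 difference -0.24, SE 0.04, adjusted p = 0.000928), the loader CDC6 (-0.16), the DNA polymerase gene POLA1 (-0.21) and RRM2 of ribonucleotide reductase (-0.14), while MCM3 rose (0.10). RRM2 and POLA1 were called with GSK-591 (-0.26 and -0.30) and had -0.01 and -0.12 with MS023, a difference between the inhibitors that was called for RRM2 (adjusted p = 3.0e-05) and not for POLA1 (0.123). Without GSK-591 replicate 2 or 3, MS023 replicate 1, TP-472 replicate 3 or UNC0642 replicate 1 the falls numbered 6, and with total-count scaling 16. The falls with MS023 alone were 8, and 3 with the GC trend removed. Summed over this list, TP-472 was the highest group at 2213 to 2245 CPM. GSK-591 had 1945 to 1963 CPM and MS023 2013 to 2032, against 1920 to 1939 with UNC0642 and 1980 to 2016 in untreated cells. Of the list 0 genes were shared. In the G2/M and mitosis list 2 of 25 rose and 5 fell, and with the GC trend removed 1 and 1. Without GSK-591 replicate 1 0 rose, and without MS023 replicate 2 3 fell. Outside the lists, and picked after their values were seen, the shared falls included ATAD5, which unloads the replication clamp (-0.29), ESCO2, a cohesin acetyltransferase (-0.31), and ERCC6L (-0.28), none of which was shared with the GC trend removed.

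**Figure D4:**
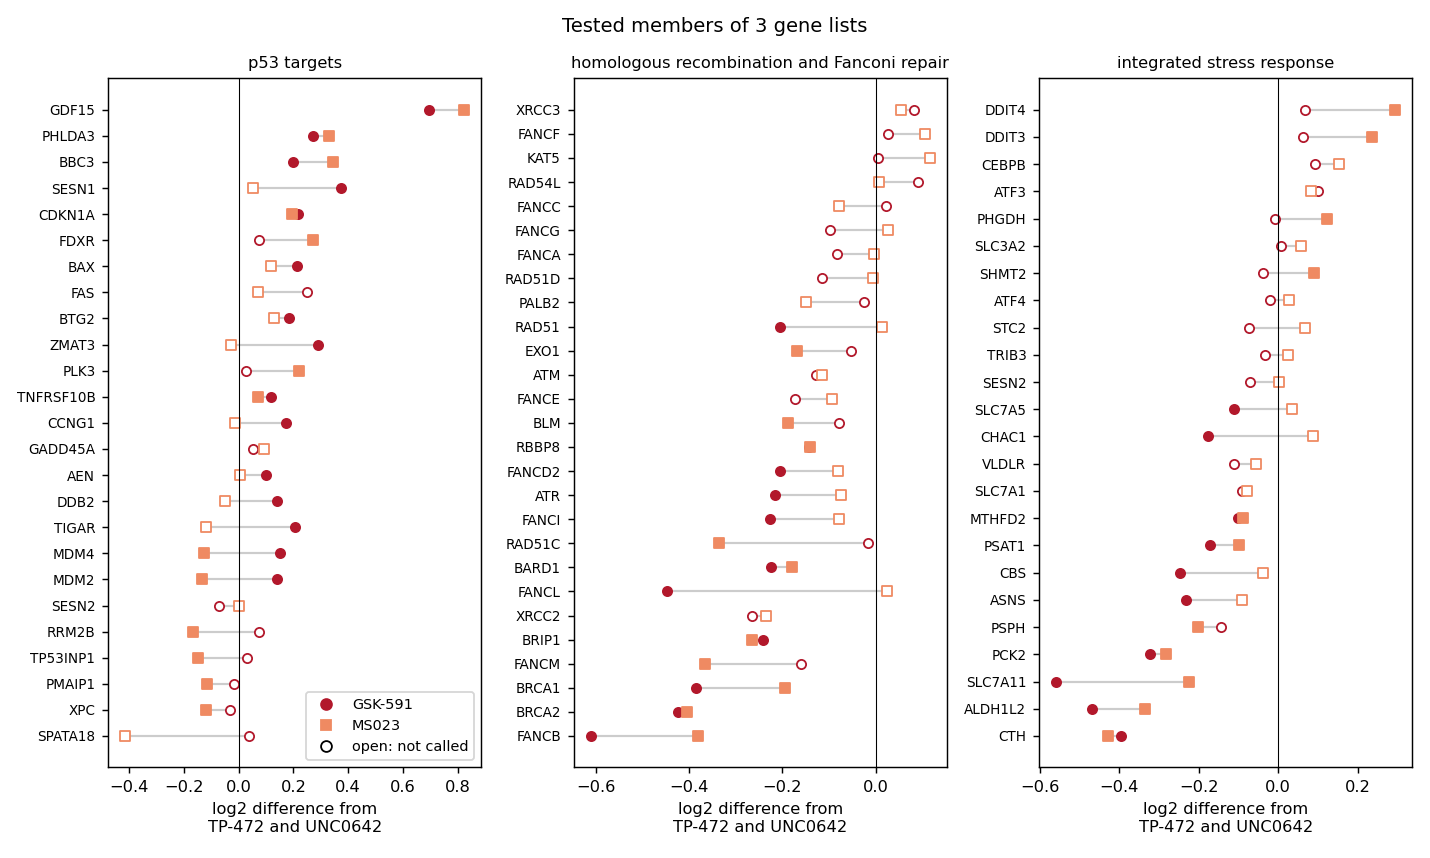
Log2 difference from TP-472 and UNC0642 (x axis) of the tested genes of 3 lists, 1 of the p53 list left out, for GSK-591 (red circles) and MS023 (orange squares); filled symbols are called genes and open ones are not. In the p53 list 15 genes are called higher with GSK-591, and in the repair list the called genes all lie below 0. In the stress response list 10 genes are called lower with GSK-591 and 7 with MS023.

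Targets of the integrated stress response, the programme in which ATF4 drives amino acid synthesis and import, were called lower more often than higher. Of 24 tested, 9 fell and 2 rose (median -0.04). Summed over the list, TP-472 was the highest group at 3939 to 4006 CPM. GSK-591 had 3555 to 3572 CPM and MS023 3763 to 3885, against 3484 to 3558 with UNC0642 and 3404 to 3562 in untreated cells. PCK2, the mitochondrial carboxykinase, had 29.6, 31.3 and 29.2 CPM with GSK-591 and 30.4, 31.6 and 30.4 CPM with MS023, against 39.2, 40.5 and 41.8 CPM with TP-472 and 34.1, 34.03 and 35.96 CPM with UNC0642. The sides did not overlap (log2 difference -0.30, SE 0.04, adjusted p = 3.5e-05), but untreated cells averaged 32.7 CPM, closer to the PRMT inhibitors than to TP-472. SLC7A11, the cystine importer, had 29.5, 31.1 and 27.4 CPM with GSK-591 and 40.2, 34.8 and 35.7 CPM with MS023, against 43.5, 40.4 and 42.6 CPM with TP-472 and 44.3, 43.6 and 44.2 CPM with UNC0642. GSK-591 was lower than MS023 by 0.33 on the log2 scale (adjusted p = 0.00177), and the counts of SLC7A11 were not whole. CTH, which makes cysteine, had -0.41 and the folate enzyme ALDH1L2 -0.40, both called with each inhibitor. Asparagine synthetase, ASNS, had 177, 182 and 186 CPM with GSK-591 and 197, 199.7 and 204 CPM with MS023, against 239, 227 and 237 CPM with TP-472 and 202, 189 and 192 CPM with UNC0642. It was lower with GSK-591 than with MS023 (adjusted p = 0.0217), and TP-472 was the highest group. DDIT3 and DDIT4, stress genes of the same list, rose, with 0.24 and 0.30 for MS023 and 0.06 and 0.07 for GSK-591. Across the list GSK-591 lowered 10 and raised 0 and MS023 lowered 7 and raised 4, and 9 of the 24 were lower with GSK-591 than with MS023 and 0 higher. Without MS023 replicate 2 the MS023 falls numbered 3 and the 9 differences between the inhibitors also 3; these differences were 5 without GSK-591 replicate 2. The 4 MS023 rises were 2 without MS023 replicate 1 or 2, TP-472 replicate 1 or UNC0642 replicate 2, and 2 with total-count scaling or the GC trend removed. SLC7A11 was not shared with the GC trend removed or with GSK-484 added to the other side.

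Of 24 NF-kB targets 11 rose and 0 fell (median 0.12), and 0 were shared. Summed over the list, UNC0642 was the lowest group at 2960 to 3027 CPM. TP-472 had 3179 to 3212 CPM, GSK-591 3236 to 3282, MS023 3211 to 3270 and untreated cells 3097 to 3289. CSF2, the growth factor GM-CSF, had 8.05, 7.22 and 8.25 CPM with GSK-591 and 7.83, 7.95 and 7.91 CPM with MS023, against 7.80, 7.63 and 6.81 CPM with TP-472 and 5.10, 5.01 and 4.70 CPM with UNC0642. It was level with TP-472 and well above UNC0642 (log2 difference 0.38, SE 0.07, adjusted p = 0.000626). The inhibitor NFKBIA (0.16), the chemokine CXCL1 (0.18, counts not whole) and TNIP1 (0.11) rose with each inhibitor, and IL6 with MS023 (0.38; 0.08 for GSK-591, adjusted p of the difference = 0.0139). GSK-591 raised 7 of the 24 and MS023 11; the 7 were 3 without GSK-591 replicate 3 and 4 without GSK-591 replicate 2, TP-472 replicate 2 or UNC0642 replicate 2, and the 11 were 6 without MS023 replicate 2. Of 18 genes of class I antigen processing 9 rose and 1, ERAP1, with counts that were not whole, fell (median 0.1). MS023 raised 11 of the 18 and GSK-591 2, and 4 were lower with GSK-591 than with MS023. HLA-C had 748, 723 and 739.9 CPM with GSK-591 and 835, 894 and 843 CPM with MS023, against 731, 748 and 759 CPM with TP-472 and 715, 689 and 715 CPM with UNC0642. MS023 was the highest group and GSK-591 was level with TP-472 (adjusted p of the difference between the inhibitors = 0.00158); the counts of the HLA genes, which resemble each other in sequence, were not whole. Without MS023 replicate 2 the MS023 count was 7. The GSK-591 count of 2 was 0 without GSK-591 replicate 2, TP-472 replicate 1, UNC0642 replicate 2 or UNC0642 replicate 3, 1 without any other single library except MS023 replicate 2, and 0 with total-count scaling or with GSK-484 added to the other side.

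In the list of YAP and TGF-beta targets 10 of 23 rose and 1 fell (median 0.09). CTGF, a secreted matrix protein at chr6:131948176-131951373, had 214, 199 and 203 CPM with GSK-591 and 192, 199 and 198 CPM with MS023, against 153, 150.3 and 152 CPM with TP-472 and 174, 172 and 175 CPM with UNC0642. All 6 PRMT inhibitor libraries were above the other 6 (log2 difference 0.31, SE 0.02, adjusted p = 1.1e-08), GSK-484 lay between at 184 CPM, and untreated cells, at 197, 199 and 198 CPM, were as high as the PRMT inhibitors. CTGF stayed shared in all 12 fits without 1 library and was lost once GSK-484 was added to the other side. TGFB1 (0.26) and the receptor kinase AXL (0.09) rose, though AXL had counts that were not whole and was not called with the GC trend removed (adjusted p = 0.236), and TGFBI, the matrix protein named for its induction by TGF-beta, was shared (log2 difference 0.14, SE 0.02, adjusted p = 0.000105). The member that fell was NT5E, described below. With total-count scaling 5 rose and 1 fell.

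Of 22 genes of the neural crest and mesenchymal melanoma state 8 rose and 1 fell, and of 41 matrix and integrin genes 13 rose and 3 fell. VIM, the intermediate filament vimentin, averaged 8302 and 8423 CPM with GSK-591 and MS023, against 7548 and 7271 CPM with TP-472 and UNC0642. No library of one side reached the other (log2 difference 0.17, SE 0.02, adjusted p = 1.6e-05), and the call held in all 12 fits without 1 library. SPARC rose (log2 difference 0.16, SE 0.02, adjusted p = 8.9e-06), as did NGFR, a neural crest receptor with counts that were not whole (log2 difference 0.32, SE 0.03, adjusted p = 2.7e-07), and SNAI2 and WNT5A with GSK-591 (0.33 and 0.21), where MS023 had -0.01 and 0.07. MITF, the regulator of melanocyte genes, had 9.56, 9.62 and 10.1 CPM with GSK-591 and 9.47, 10.8 and 9.99 CPM with MS023, against 11.7, 11.8 and 12.1 CPM with TP-472 and 12.7, 12.8 and 12.4 CPM with UNC0642. The PRMT inhibitor libraries lay below the other 6 (log2 difference -0.30, SE 0.05, adjusted p = 0.000174), GSK-484 was at 9.24, 10.9 and 11 CPM, overlapping the PRMT inhibitor range, and untreated cells were at 12.8 CPM. MITF belongs to the melanocyte lineage list, of which 15 genes were tested. Of these 1 was called higher, 2 lower and 12 not (6.67% and 13.3%, beside 10% and 8.91% of all genes). Without 1 library the falls of that list were 1 to 3, and with the GC trend removed 0 rose and 2 fell. MITF and BRCA1 stayed shared in 7 of the 12 fits without 1 library, PCK2 in 6, TGFBI in 5 and NGFR in 8. With GSK-484 added to the other side MITF, TGFBI and NGFR were not shared, with the GC trend removed NGFR and SPARC were not, and with total-count scaling VIM, TGFBI and NGFR were not. With total-count scaling 6 genes of the mesenchymal list rose and 4 fell, and in the matrix list 10 rose and 7 fell.

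**Figure D5:**
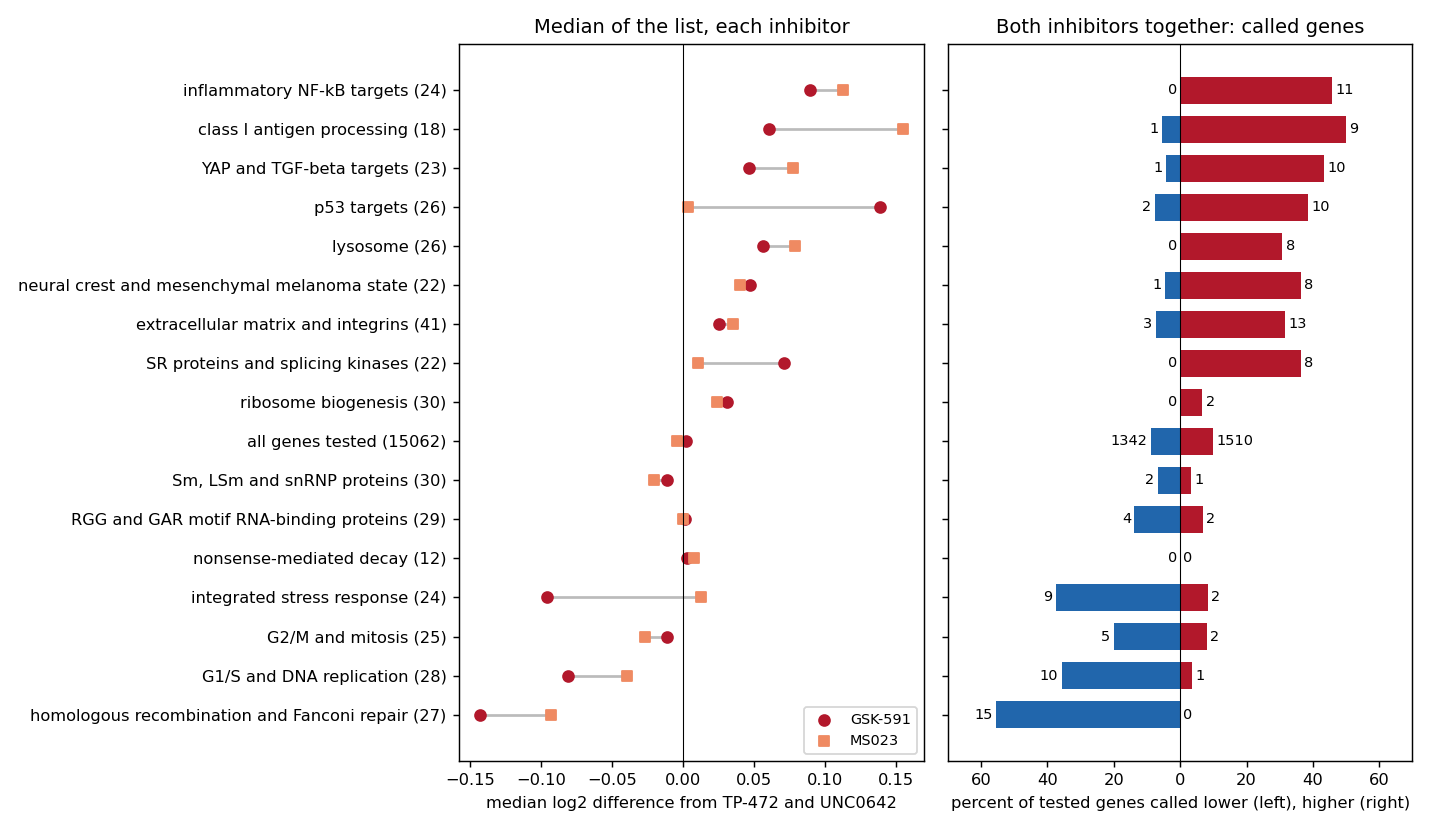
Left, the median log2 difference from TP-472 and UNC0642 of each list for GSK-591 (circles) and MS023 (squares), with the number of tested genes in brackets; right, the percent of tested genes called lower (blue, left of 0) and higher (red, right of 0) with both inhibitors together, with the counts at the bar ends. Among the lists plotted, the p53 and stress response lists have the medians furthest apart between the inhibitors, with class I antigen processing next, and the repair list has the largest share of lower genes, 15 of 27.

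Of 26 lysosomal genes 8 rose and 0 fell (median 0.06), among them the protease genes CTSB, a shared gene (log2 difference 0.18, SE 0.02, adjusted p = 1.7e-05), CTSD (0.15) and CTSK (0.24), and the autophagy receptor SQSTM1 (0.24, counts not whole). Of 21 hypoxia-inducible genes 7 rose and 2 fell, with the vasodilator peptide ADM shared (log2 difference 0.28, SE 0.04, adjusted p = 0.000157) and the glucose importer SLC2A1 higher (0.18). The rises were 4 without MS023 replicate 3, TP-472 replicate 1 or UNC0642 replicate 2, and 3 with total-count scaling. In ribosome biogenesis 2 of 30 rose and 0 fell, or 6.67% and 0%, below the 10% and 8.91% of all genes. Both rises were shared genes: UTP14A, given above, and NOP58, a core protein of methylation-guiding nucleolar particles. NOP58 averaged 103 and 104 CPM with GSK-591 and MS023, against 93.02 and 86.1 CPM with TP-472 and UNC0642 (log2 difference 0.21, SE 0.03, adjusted p = 2.9e-05). NOP58 and ADM stayed shared in 7 of the 12 fits without 1 library, and CTSB in 11. With total-count scaling NOP58 and CTSB were not shared, and with GSK-484 added to the other side ADM was not. NOP58 was also lost with counts thinned to the smallest total.

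The targets of the compounds on the other side were looked at because a difference can start there. BRD9, the bromodomain protein bound by TP-472, had 151, 145 and 149 CPM with GSK-591 and 144, 149 and 143 CPM with MS023, against 134, 134 and 136 CPM with TP-472 and 127, 125 and 125 CPM with UNC0642. The PRMT inhibitor libraries lay above the other 6 (log2 difference 0.18, SE 0.02, adjusted p = 1.2e-05), UNC0642 was the lowest of the 4, and GSK-484 averaged 135 and untreated cells 124 CPM. BRD9 was a shared gene and stayed one in 9 of the 12 fits without 1 library, but not with total-count scaling. BRD7 was lower (log2 difference -0.09, SE 0.03, adjusted p = 0.0182), a call that was lost without GSK-591 replicate 1 (adjusted p = 0.0601) and with the GC trend removed (0.0853). EHMT1 and EHMT2, the targets of UNC0642, were not called with both inhibitors together (-0.02 and 0.08, adjusted p = 0.774 and 0.142), and EHMT2 was higher with MS023 than with GSK-591 (adjusted p = 0.0469).

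GSK-591 and MS023 differed from each other at 1490 genes (9.89%; 818 higher and 672 lower with GSK-591). For 8 genes the inhibitors moved in opposite directions against both TP-472 and UNC0642: ARSK, CNRIP1 and TUBGCP4 were higher with GSK-591 and lower with MS023, and DDX39B, ENO2, EWSR1, HPS1 and ZNF33B the reverse. The counts of DDX39B, ENO2 and ZNF33B were not whole. DDX39B differed most between the inhibitors among the 8 (-0.75), with -0.18 for GSK-591 and 0.57 for MS023. It was still called higher in the pooled comparison (0.19, adjusted p = 1.9e-05). ARSK, a lysosomal sulfatase, had 18.6, 19.3 and 18.5 CPM with GSK-591 and 12.02, 12.6 and 12.2 CPM with MS023, against 16.4, 14.2 and 14.5 CPM with TP-472 and 15.4, 16.1 and 16.4 CPM with UNC0642. No GSK-591 or MS023 library overlapped those of TP-472 or UNC0642 (0.28 for GSK-591, adjusted p = 0.00458; -0.33 for MS023, adjusted p = 0.000564). CNRIP1, which binds a cannabinoid receptor, differed by 0.51 between the inhibitors, and TUBGCP4, of the microtubule-nucleating ring, by 0.37. HPS1, a melanosome biogenesis gene, had 19.7, 16.6 and 19.1 CPM with GSK-591 and 27.4, 28.3 and 26.6 CPM with MS023, against 22.7, 24.3 and 21.1 CPM with TP-472 and 21.1, 21.3 and 22.6 CPM with UNC0642. MS023 was the highest and GSK-591 the lowest of these 4 groups (difference -0.56, adjusted p = 3.4e-06). EWSR1, itself an RNA-binding protein with arginine-rich stretches, had 271, 282 and 278 CPM with GSK-591 and 348, 354 and 347 CPM with MS023, against 311, 319 and 318 CPM with TP-472 and 308, 304 and 303 CPM with UNC0642. Again the inhibitors lay on either side of the other compounds (difference -0.34, adjusted p = 3.9e-07), so its pooled difference was 0.00 and not called.

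Some pooled calls rested mainly on 1 inhibitor. NT5E, the CD73 enzyme that makes adenosine, had 216, 208 and 217 CPM with GSK-591 and 104, 102 and 105 CPM with MS023, against 228, 224 and 225 CPM with TP-472 and 255, 259 and 262 CPM with UNC0642. MS023 had less NT5E than the other 3 groups, at a log2 difference of -1.22 (adjusted p = 9.0e-19), and GSK-591 had -0.18 (adjusted p = 0.000225) but was not called against TP-472 alone (adjusted p = 0.142). OPN3, an opsin gene with counts that were not whole, had 22.2, 21.03 and 22.7 CPM with GSK-591 and 8.39, 7.39 and 8.13 CPM with MS023, against 20.2, 19.5 and 21.2 CPM with TP-472 and 21.2, 19.9 and 19.8 CPM with UNC0642. It was lower with MS023 (-1.35, adjusted p = 1.0e-11) and not called with GSK-591 (0.12, adjusted p = 0.224), and the inhibitors differed by 1.47 (adjusted p = 3.2e-11). Both genes were called lower in the pooled comparison and are not shared, NT5E because GSK-591 was not called against TP-472 and OPN3 because GSK-591 was not called.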

How the data were processed

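RNA of SK-MEL-147 cells was sequenced in 21 libraries, 3 in each of 7 groups, and the 12 libraries of GSK-591, MS023, TP-472 and UNC0642 were compared. The deposited values are expected counts per gene; per the submitters' processing notes Bowtie2 2.1.0, RSEM 1.2.15 and the hg38 build were used. Per the labels' protocols, RNA was purified with Trizol and columns. An expected count shares a read among genes it could come from, and 26.2% of genes tested had a count in the 12 libraries that was not whole (tolerance 1e-06). Expected counts were rounded. Genes passing filterByExpr (minimum count 10, minimum total 15) were scaled by TMM and fitted with edgeR 4.0.16 (R 4.3.3) in 1 quasi-likelihood model of all 21 libraries, with group as the only term, two-sided tests and Benjamini-Hochberg adjustment over 15062 genes. The prior count was 0.125 for fold changes and 2 for log2 CPM. Library GC trends were loess fits (span 0.3, 4 iterations) on GENCODE 29 transcript GC content, known for 14582 genes (96.8%). DESeq2 1.42.0, limma 3.58.1, Python 3.11.15, numpy 2.4.6, pandas 2.3.3, scipy 1.17.1 and matplotlib 3.10.9 were also used.

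Named genes were the 10 largest rises and 10 largest falls, by the smallest of the 4 single contrasts, among genes shared in the fits with and without the GC trend, with at least 3 CPM on the higher side, non-overlapping libraries and whole counts. Genes with counts that were not whole but otherwise as large, the shared genes of the lists, the compounds' targets and the inhibitors' opposed genes were added. The members and lists were chosen with earlier results of these data known, so list counts are descriptions. No replicate pair of a group held identical values; their counts differed by chi-square values of 3.41 to 15.2 per degree of freedom. On simulated counts of 14872 genes for the comparison of both PRMT inhibitors with TP-472 and UNC0642, 41.8%, 97% and 100% of genes changed 1.2-, 1.5- and 2-fold by both inhibitors were called shared. Of 200 genes raised 1.5-fold with GSK-591 alone, 178 were called in the pooled contrast. Of these 0 were shared, which the equal means given to MS023, TP-472 and UNC0642 made nearly certain. Of the unchanged genes 28 were called in the pooled contrast and 0 were shared. The simulated libraries held no GC trend and no difference between TP-472 and UNC0642. Alternatives were another tool, 2 other scalings, no filter, thinning to the smallest total, a replicate block, the 12 libraries alone, GC trend removal, a 1.2-fold threshold, GSK-484 on the other side and leaving out each library. A few genes that enter the counts are not reported here by name.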

Additional observations from a re-analysis of the deposited data

Results flagged for a closer look

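For 13 of the named genes GSK-591 and MS023 differed from each other in the edgeR test of that difference; values are log2 differences of GSK-591 minus MS023. Among shared falls, GSK-591 lay above MS023 for ZC3H6 (0.37), C14orf142 (0.43), SLC1A4 (0.17) and ZBED1 (0.19), and below it for BRCA1 (-0.19) and SLC7A11 (-0.33). Among shared rises, NGFR differed by -0.22 and TGFBI by 0.10. EHMT2, a target of UNC0642, differed by -0.16. ARSK (0.61), CNRIP1 (0.51), TUBGCP4 (0.37) and HPS1 (-0.56) were chosen because the inhibitors moved them in opposite directions, so their differences are descriptions.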

How the results depend on the processing

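The counts of genes called for both inhibitors, shared, for GSK-591, for MS023 and between the inhibitors were 2852, 137, 1759, 2936 and 1490. DESeq2, RLE scaling, total-count scaling, no filter, the 12 libraries alone and GC trend removal kept each within 1.5 times. Total-count scaling left 25.3% of pooled calls higher, where TMM had 52.9%, and GC trend removal 63.2%. Replicate numbers did not pair the libraries (correlations of same-numbered deviations from -0.16 to 0.0737), and with a replicate block the counts were 2739, 134, 1632, 2797 and 1383. Thinning to the smallest total left 86 shared genes, and GSK-484 on the other side 38. Against 1.2-fold the counts were 11, 0, 4, 60 and 40, where 416, 475, 622 and 561 genes had an unadjusted p under 0.05 for both inhibitors, GSK-591, MS023 and between them. Without 1 library the counts ran from 1935 to 2756 for both inhibitors, 69 to 121 shared, 809 to 1771 for GSK-591, 1183 to 2903 for MS023 and 808 to 1412 between them. The GC slope difference was 0.0562, with p = 0.0216, and 0.0583 (p = 0.0173) over genes of at least 10 CPM (exact permutation tests). No named gene reversed; 44 lost their call against 1.2-fold, and removing the GC trend lost PRMT6 (adjusted p = 0.0563) and BRD7 (0.0853). Depth, doses and treatment times limit what the small differences can show.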
